A study of Homo sapiens with 6 samples.

Results

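Among the open chromatin regions of RH30 cells, 19740 were distal regions that every library shared and that lacked 2 motifs. These held neither the E box CAGCTG nor the AP-1 consensus at their summit, while other E boxes were not excluded. They were chosen by overlap, position and sequence. Overlapping peaks of 6 libraries on the autosomes and the X chromosome were merged into 105441 regions, of which 47847 were called in all 6 libraries. Of these, 37231 had the summit of their highest peak more than 2 kb from the 5′ end of any of 19970 protein-coding genes. The regions described here, called members below, are those with no CAGCTG and no TGACTCA or TGAGTCA within 100 bp of that summit on either strand. They made up 18.7% of all merged regions, 41.3% of the regions called in all 6 libraries and 53.0% of the shared distal regions.

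RH30 is a rhabdomyosarcoma line of the fusion-positive (alveolar) type, and chromatin accessibility was measured by ATAC-seq in 3 libraries from vector cells and 3 libraries from MyoD-deleted cells. Both groups were transduced with Cas9, the vector cells together with non-targeting scramble guides and the MyoD-deleted cells together with guides against MyoD. Sample labels and methods name the line RH30, while the main text of the study writes of RH30 in some passages on ATAC-seq and in others of RH30-SR, which carries an IκBα super repressor, so the presence of that transgene is not settled by the sources used here. Whether each group was a clone or a pool of edited cells is not given in the sources used here, and the labels call the libraries of a group biological replicates.

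ATAC-seq relies on the Tn5 transposase, which inserts sequencing adapters where DNA is not wrapped by nucleosomes or covered by bound protein. MyoD and other basic helix-loop-helix factors bind E boxes (CANNTG) as dimers, and MyoD prefers the form with GC at its centre, CAGCTG, while AP-1 dimers of FOS and JUN proteins bind TGACTCA or TGAGTCA. Distal open regions without either of these can be held open by other proteins, among them CTCF, which bounds chromatin loops together with cohesin, RUNX factors, and TEAD factors, which recruit YAP and TAZ.

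The sequences below carry the patterns described in the following paragraphs, each as the plus strand of hg38 over 100 bp on both sides of the summit, with the motif in capitals. The first set holds AACAGGTG, an E box with GG at its centre preceded by AA, which reads CACCTGTT where it lies on the minus strand. These 4 members were among those with the largest fall in MyoD-deleted libraries, and they were chosen after their values were seen.
SMYD2, chr1:214205231-214205431: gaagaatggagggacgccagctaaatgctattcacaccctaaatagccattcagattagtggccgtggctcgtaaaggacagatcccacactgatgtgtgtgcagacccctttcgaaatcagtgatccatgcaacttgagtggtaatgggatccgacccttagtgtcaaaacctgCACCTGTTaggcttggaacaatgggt
TBC1D7, chr6:13177762-13177962: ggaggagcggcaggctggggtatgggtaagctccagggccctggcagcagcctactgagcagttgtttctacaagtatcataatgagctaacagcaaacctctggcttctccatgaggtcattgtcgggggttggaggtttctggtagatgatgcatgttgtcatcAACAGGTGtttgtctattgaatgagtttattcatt
GPC5, chr13:91184487-91184687: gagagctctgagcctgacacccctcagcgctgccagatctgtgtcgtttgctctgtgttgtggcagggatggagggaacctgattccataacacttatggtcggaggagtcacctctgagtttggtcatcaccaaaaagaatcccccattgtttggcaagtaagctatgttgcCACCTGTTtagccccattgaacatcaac
EDN3, chr20:59334834-59335034: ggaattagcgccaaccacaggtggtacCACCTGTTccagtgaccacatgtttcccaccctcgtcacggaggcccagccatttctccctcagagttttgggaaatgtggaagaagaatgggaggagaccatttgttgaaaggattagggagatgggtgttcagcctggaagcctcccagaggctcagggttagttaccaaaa

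The second set shows members that ranked higher in MyoD-deleted libraries. The first 3 hold the TEAD motif GGAATG, read as CATTCC where it lies on the minus strand, and the last holds the RUNX motif TGTGGT once on each strand. They were chosen by their rise, and regions named below that fell also held these motifs. TEAD was in those near EYA4, JUN and LAMA2, and RUNX in those near GULP1, ACTA1, RYR3 and ROBO1.
CCN2, chr6:132084915-132085115: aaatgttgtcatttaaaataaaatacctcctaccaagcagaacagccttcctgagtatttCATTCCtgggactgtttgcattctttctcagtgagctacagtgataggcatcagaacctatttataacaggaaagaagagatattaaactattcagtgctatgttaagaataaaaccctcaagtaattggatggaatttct
COL11A1, chr1:103220700-103220900: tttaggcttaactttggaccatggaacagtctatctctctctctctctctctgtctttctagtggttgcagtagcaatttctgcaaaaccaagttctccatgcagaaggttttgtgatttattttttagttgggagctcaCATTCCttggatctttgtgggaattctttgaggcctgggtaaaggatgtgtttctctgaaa
SLC23A2, chr20:4917140-4917340: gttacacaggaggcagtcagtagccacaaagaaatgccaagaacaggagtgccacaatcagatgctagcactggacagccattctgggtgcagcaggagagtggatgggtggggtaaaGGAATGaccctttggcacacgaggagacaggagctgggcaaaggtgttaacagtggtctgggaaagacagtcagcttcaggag
C15orf62, chr15:40776838-40777038: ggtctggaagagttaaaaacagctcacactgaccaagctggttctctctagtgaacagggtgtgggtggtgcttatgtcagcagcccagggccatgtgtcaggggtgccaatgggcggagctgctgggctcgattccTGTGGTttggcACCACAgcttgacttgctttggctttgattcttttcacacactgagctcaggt

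The last sequence holds the CTCF core motif, and belongs to the CTCF member with the highest mean openness over the 6 libraries.
GOLGA8Q, chr15:30567019-30567219: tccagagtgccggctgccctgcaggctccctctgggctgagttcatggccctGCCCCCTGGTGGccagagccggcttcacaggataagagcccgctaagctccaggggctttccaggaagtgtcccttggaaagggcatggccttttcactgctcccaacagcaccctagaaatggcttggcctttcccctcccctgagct

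The members had a median width of 947 bp, the median distance of the summit to the nearest 5′ end was 39.7 kb (interquartile range 15.5 to 102 kb), and the median GC content of the window from 100 bp before to 100 bp after the summit was 50.7%. Introns of protein-coding genes held 45.8% of them, exons 8.14%, genes of long non-coding RNAs alone 13.2%, and 32.8% lay outside both. Density was lowest on chromosome X, with 3.32 members per Mb, and highest on chromosome 19, with 13.3. Within a member, the summits of the 6 libraries lay within a median of 90 bp of each other.

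Openness was read in 2 ways from the deposited peaks. The percentile of a region is its place by fold enrichment (the pileup of fragments at the summit over the local background) among all regions called in all 6 libraries, counted within 1 library, so that 0 is the least and 100 the most enriched. The centred height is log2 of the recovered pileup at the summit over the smallest background of the library, minus the median region, and it is not divided by the local background. Read totals are not part of the peak lists, and library depth is therefore unknown. The smallest background, which moves with depth, was 2.22 to 3.41 fragments in vector libraries and 2.27 to 2.35 in MyoD-deleted libraries, and the peaks used were 63068 to 74041 and 73673 to 80530 per library. Median peak width was 683 to 741 bp in vector libraries and 591 to 636 bp in MyoD-deleted libraries. Over the members, libraries correlated by rank at 0.862 to 0.908 in the same group and 0.742 to 0.810 across groups. The promoters of MYOD1, MYOG, MYF5, DES, MYMK, FGFR4, MYCN, CDH15 and CHRNA1, fixed as markers of fusion-positive rhabdomyosarcoma, were called open in all 6 libraries, whereas that of TFAP2B was called in 0.

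The members were somewhat less enriched than shared regions at large, which include promoters. By the median of the mean percentile, members stood at 41.3 and all shared regions at 48.8. Distal regions with only the E box stood at 44.6, with only AP-1 at 45.4 and with both at 52.5. Regions within 2 kb of a 5′ end stood at 75.0. The median percentile of the members was 40.7, 40.3 and 40.7 in vector replicates 1 to 3, and 42.7, 43.2 and 42.8 in MyoD-deleted replicates 1 to 3. Every MyoD-deleted library lay above every vector library, by a small amount beside the median SD of a member between libraries, which was 6.26 points in the vector group and 5.92 in the MyoD-deleted group. The difference between the group means was within 5 points in 38.6% of members and over 20 points in 13.7%.

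The contrast between the groups asks where chromatin opened or closed after loss of MyoD. limma on the ranks, fitted over all 47847 shared regions with Benjamini-Hochberg adjustment, called 1059 members higher and 774 lower in MyoD-deleted libraries at an adjusted p under 0.05. These were 5.36% and 3.92% of the members, where 4.12% and 4.67% of all shared regions were called higher and lower. By centred height in the same fit, 2752 members (13.9%) were higher and 1983 (10.0%) lower, beside 11.4% and 12.8% of all shared regions. Both measures called 880 members (4.46%) higher and 676 (3.42%) lower, beside 3.38% and 4.13%. The percentiles of the groups did not overlap in 3337 members (16.9%) that were higher and 2555 (12.9%) that were lower, beside 14.1% and 15.9%. The surplus of higher over lower calls by rank was lost without MyoD-deleted replicate 2, when 300 were higher and 322 lower. The median member changed by 1.04 percentile points and by 0.08 in centred log2 height. Because a region had to be called in all 6 libraries, regions that opened from nothing or closed altogether were not members, and the counts do not cover them.

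For context, the shared distal regions with only the E box (9466) were called lower in 11.4% and higher in 2.04%, and those with only AP-1 (5749) higher in 8.99% and lower in 2.30%. By either count the members stood between these. Just outside the rule, regions with CAGCTG at 75 to 100 bp from the summit (1739) were called lower in 8.97%, and just inside, members with it at 100 to 125 bp (1237) in 6.79%. With AP-1 at 75 to 100 bp (1062) 8.29% were called higher, and with AP-1 at 100 to 125 bp (564) 8.33%. For the distance rule, regions 1 to 2 kb from a 5′ end (673) were called higher in 2.38% and members 2 to 3 kb away (436) in 2.06%. Of the members, 13484 had neither motif within 250 bp, and 5.50% of these were called higher and 3.29% lower. A further 4145 regions were called in 5 of the 6 libraries. They were missed most often in vector replicate 2 (1529) and least often in MyoD-deleted replicate 3 (211), and their median highest fold enrichment was 7.07, beside 10.2 for the members.

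To learn which other motifs the summits held, 29 further motifs were searched on both strands in the same window around the summit, and in windows of the same length centred 500 bp to each side. RUNX (TGTGGT) was in 23.2% of members and 13.2% of their flanks, and the GC box (GGGCGG), bound by SP and KLF factors, in 16.5% and 7.76%. The CTCF core motif was in 1615 members, 8.18%, and in 0.076% of flanks. TEAD (GGAATG) was in 18.6% and 10.7%, and the AP-1-like TGAATCA, which differs from the consensus at its centre, in 6.59% and 2.67%. Of the E boxes other than CAGCTG, the type with GA or TC at its centre (CAGATG or CATCTG), read by neural factors and TWIST, was in 18.7% of members and 13.4% of flanks. The type with GG or CC (CAGGTG or CACCTG), which the repressors of the ZEB and SNAI families also bind, was in 17.0% and 19.3%, so that it was no more frequent at summits than beside them. Motifs rich in A and T were less frequent at summits, such as homeobox (TAATTA, 3.09% beside 6.15%) and MEF2 (2.11% beside 3.93%). Among all shared regions, promoters included, RUNX was in 19.98%, the GC box in 24.5%, CTCF in 4.40%, TEAD in 16.1%, TGAATCA in 5.12%, CAGATG in 16.4% and CAGGTG in 15.3%. Homeobox, MEF2, SOX and NF-kB sites were in 2.47%, 1.80%, 2.44% and 3.93% of them, CAGTTG in 10.2% and CACGTG in 4.40%. Among all shared distal regions, members included, RUNX was in 23.8%, TEAD in 18.7% and CAGATG in 19.4%. These shares were close to those of the members. The GC box was in 13.6% of shared distal regions, CTCF in 5.34%, TGAATCA in 6.29% and CAGGTG in 16.3%. No motif of the list was found in 1862 members, 9.43%.

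**Figure D1:**
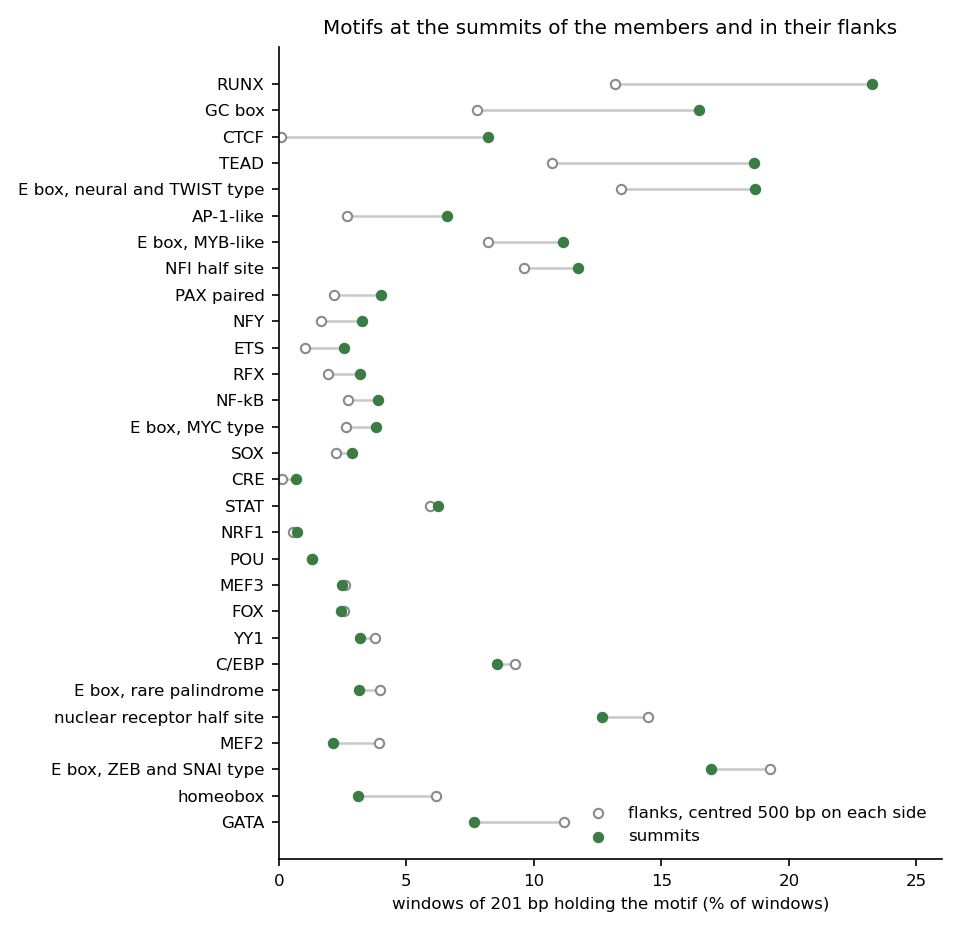
Share of windows (x axis, % of windows) that hold each motif at the summits of the 19740 members (filled points) and in flanks centred 500 bp to each side (open points), ordered by the difference. RUNX stood at 23.2% beside 13.2% and CTCF at 8.18% beside 0.076%, while GATA and homeobox sites were more frequent in the flanks.

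Of the 29 motifs, the CTCF core had the largest ratio of summit to flank share, and it lay beside the summit, not on it. A match lay within 250 bp in 1763 members, with a median distance of 45.5 bp from its centre to the summit (interquartile range 31.5 to 66.5 bp). In 1580 of them (89.6%) it was 20 to 100 bp away, and in 54 (3.06%) within 20 bp. In bins of 20 bp, 1.86% of all members held the centre of a match at 30 bp before the summit and 1.70% at 30 bp after it, against 0.13% and 0.15% in the bins at 10 bp on either side. RUNX, TEAD and GC box matches formed broad maxima without such a gap.

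**Figure D2:**
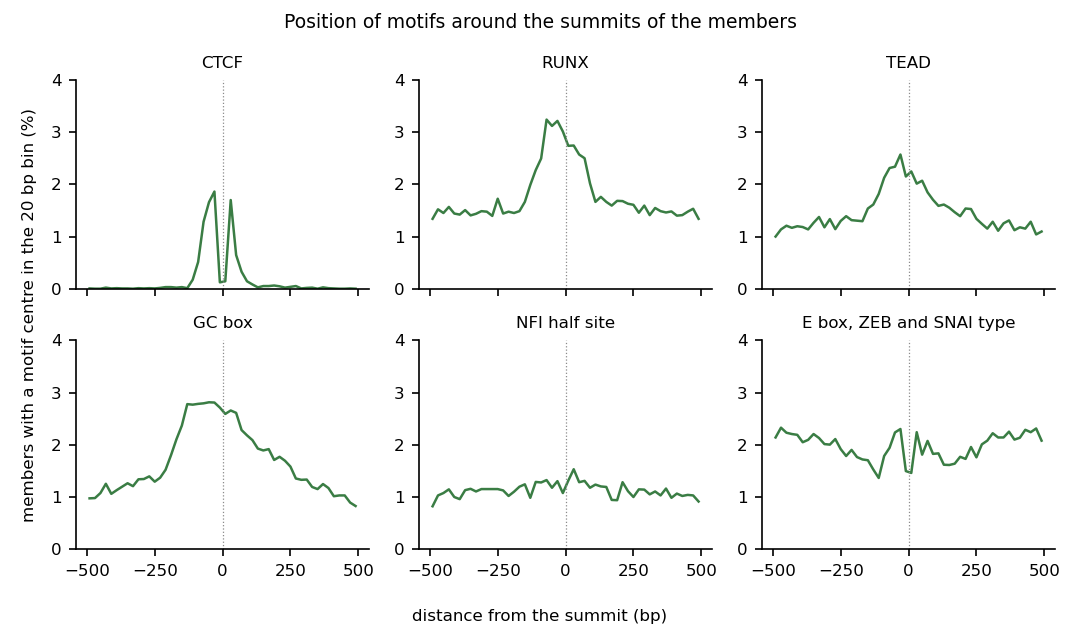
Percentage of members with the centre of a motif in each 20 bp bin (y axis) by distance from the summit (x axis, bp) for 6 motifs, on a common scale. CTCF forms a peak on each side of the summit, 1.86% at −30 bp and 1.70% at +30 bp, with 0.13% and 0.15% in between, and is nearly absent further out.

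Of the members grouped by each of the 29 motifs, those with the CTCF core were called least often. Their median percentile was 31.8, 35.7 and 36.5 in vector replicates 1 to 3 and 38.8, 37.9 and 37.8 in MyoD-deleted replicates 1 to 3, so the groups did not overlap and the median change was 2.76 points. By rank 41 of 1615 (2.54%) were called higher and 7 (0.43%) lower, beside 5.36% and 3.92% of all members. By centred height 3.53% were higher and 1.92% lower, beside 13.9% and 10.0%. The percentiles of the groups did not overlap in 15.5% that were higher and 5.26% that were lower, beside 16.9% and 12.9%. Their median SD between libraries was 7.05 points in the vector group and 6.63 in the MyoD-deleted group, beside 6.26 and 5.92. The part of this larger spread in the few calls was not tested. CTCF members were narrower, with a median width of 752 bp, and stood lower on the percentile scale (median of the mean 36.1) than all members (41.3). Across fits without 1 library each, 0 to 9 of them were called lower by rank. The CTCF core was less frequent in the other distal classes, in 3.22% of regions with only the E box and 1.01% of those with only AP-1. The most open CTCF member lay outside genes at chr15:30566946-30567569, 15.1 kb from the 5′ end of GOLGA8Q, a golgin family gene. Its percentile was 99.2, 97.3 and 99.2 in vector libraries and 99.2, 99.1 and 99.6 in MyoD-deleted libraries, so that the groups overlapped (adjusted p = 0.486, limma).

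More higher than lower calls were found for members with AP-1-like, TEAD, NF-kB and RUNX motifs, among others. All members had 5.36% higher and 3.92% lower, so such a surplus alone did not set a motif apart. Members with the STAT motif (TTCNNNGAA) had 7.05% higher and 3.65% lower, and those with the NFI motif (TTGGCA) 6.74% and 4.36%. The AP-1-like TGAATCA was found in 1301 members, of which 98 (7.53%) were called higher and 39 (3.0%) lower. With TEAD (3681) these numbers were 270 (7.34%) and 132 (3.59%), and with at least 2 TEAD motifs (485) 8.66% and 2.89%. By centred height, 19.8% of TEAD members and 22.8% of TGAATCA members were higher, and 10.2% and 9.07% lower. NF-kB sites (767 members) had 7.04% higher and 2.48% lower, and RUNX sites (4588) 6.87% and 4.49%. TEAD, TGAATCA and NF-kB members had more higher than lower calls in every fit without 1 library, whereas RUNX members had 83 higher and 99 lower without MyoD-deleted replicate 2. GC box members (3249) were called rarely in either direction, 3.29% and 1.51%, and their median percentile, 49.7 to 54.2 in vector libraries and 54.4 to 55.2 in MyoD-deleted libraries, was above that of all members. Among members with 10 or more CpG in the window (3350), 1.58% were called higher and 0.84% lower, and among those with 0 CpG (1846) 8.07% and 7.04%. Members with none of the listed motifs had 5.80% higher and 2.47% lower.

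By rank, more lower than higher calls were found for SOX and MEF2 motifs and for E boxes other than CACGTG, among others. Homeobox sites (30 higher and 32 lower), the PAX paired motif (29 and 31), ETS sites (CCGGAAG, 11 and 13) and CRE sites (TGACGTCA, 1 and 5) leaned this way by few members. SOX sites (ACAATGG, 569 members) had 17 higher (2.99%) and 45 lower (7.91%), and MEF2 sites (417), read by MEF2 factors that act with MyoD on muscle genes, had 17 (4.08%) and 27 (6.47%). The other motifs of muscle regulators were nearer to the members at large, with 5.92% higher and 3.88% lower for MEF3 (490 members) and 3.68% and 3.93% for the PAX paired motif (789). Members with CAGGTG or CACCTG (3346) had 74 higher (2.21%) and 322 lower (9.62%). By centred height, 178 of the CAGGTG members were higher and 728 lower, 54 and 84 of the SOX members, and 48 and 56 of the MEF2 members. The E boxes CAGATG (3685; 4.67% and 6.02%) and CAGTTG (2201; 4.91% and 6.04%) were nearer to the members at large, and CACGTG, the type bound by MYC and USF (749), had 4.94% higher and 2.14% lower. By centred height the surplus of lower calls was absent for CAGTTG, with 297 higher and 296 lower. The 7235 members without any CANNTG in the window had 455 higher (6.29%) and 137 lower (1.89%), and the 12505 with at least 1 had 604 (4.83%) and 637 (5.09%).

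**Figure D3:**
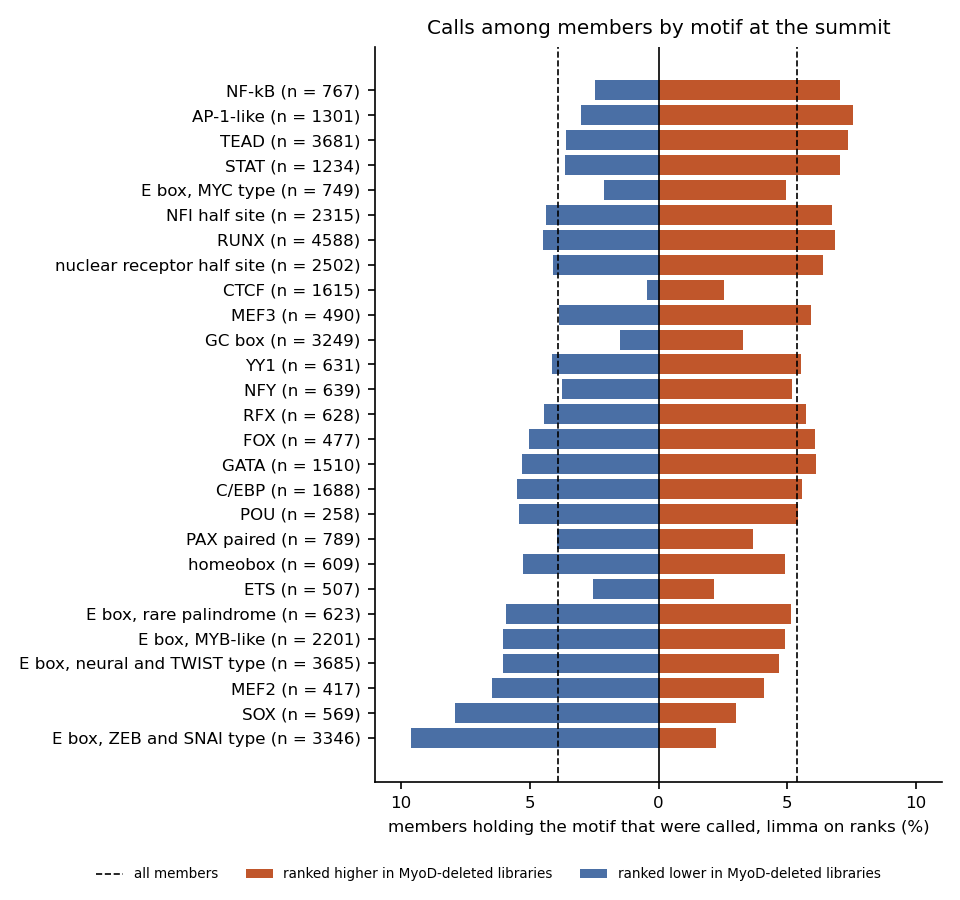
Percentage of the members holding each motif that limma on ranks called higher (right) or lower (left) in MyoD-deleted libraries, for motifs with at least 250 members, and dashed lines at 5.36% and 3.92% for all members. CTCF members have the shortest bar to the left, 0.43%, and CAGGTG members (labelled ZEB and SNAI type) have the longest bar to the left, 9.62%.

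Within the CAGGTG members, the share called lower varied with the bases just before the E box, a split chosen after the values were seen. Some CTCF core matches contain CAGGTG, and 506 CTCF members held it, of which 11 (2.17%) were called higher and 3 (0.59%) lower. Without these, 2840 members held CAGGTG, with 63 higher (2.22%) and 319 lower (11.2%). Read 5′ to 3′ towards CAGGTG, AACAGGTG or GACAGGTG occurred in 650 of them, with 4 higher (0.62%) and 169 lower (26%), and by centred height 11 were higher and 339 (52.2%) lower. After AA alone (420) 28.6% were lower, after GA (232) 21.6%, after AG (448) 14.3% and after GG (378) 8.73%. After a pair of pyrimidines (486), 20 (4.12%) were higher and 13 (2.67%) lower. The share of lower calls among AACAGGTG or GACAGGTG members was 12.5% to 22.2% in fits without 1 library each, when that of all members was 1.51% to 3.23%.

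The members with AACAGGTG or GACAGGTG lay above the median member in each vector library and below it in each MyoD-deleted library. Their median percentile was 50.3, 52.4 and 50.1 in vector replicates 1 to 3, and 31.4, 28.9 and 31.7 in MyoD-deleted replicates 1 to 3, without overlap. The difference was over 20 points in 32.3% of them, beside 13.7% of all members. These letters were in 3.47% of members, 1.65% of their flanks and 2.81% of all shared regions. With the same bases before CAGATG, 2.21% of 678 members were called higher and 11.4% lower. Before CAGTTG, 2.93% of 239 members were higher and 7.95% lower. Whatever the bases before them, 6.62% of CAGATG members and 6.35% of CAGTTG members were lower. These counts leave out members with the CTCF core.

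**Figure D4:**
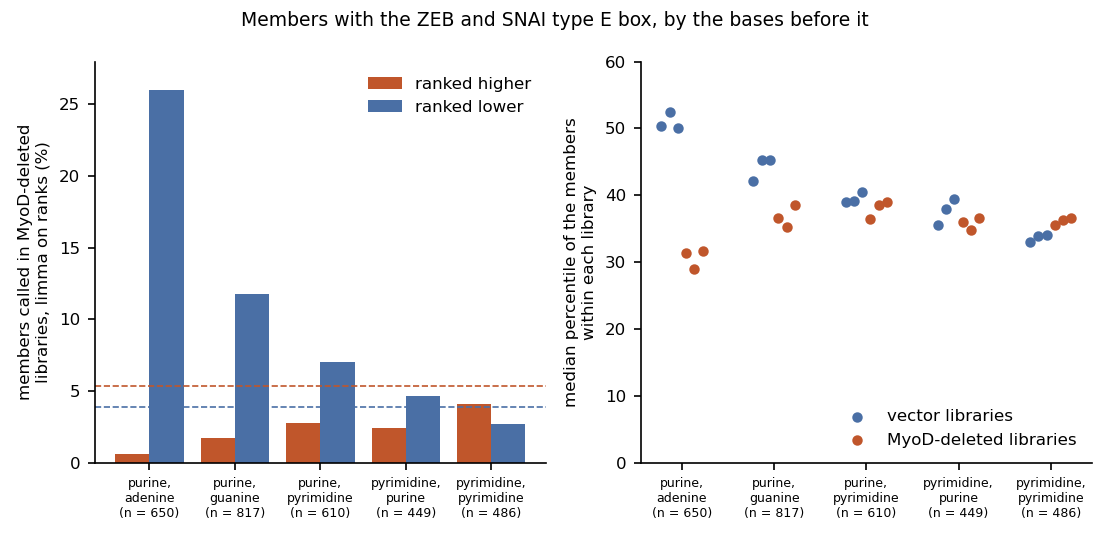
Members with CAGGTG and no CTCF core, split by the pair of bases before it. Left, percentage called higher or lower in MyoD-deleted libraries by limma on ranks, with dashed lines for all members, and right, the median percentile in each of the 6 libraries. Lower calls run from 26% after a purine and adenine to 2.67% after a pair of pyrimidines, and in the first group all 3 vector libraries (50.1 to 52.4) lie above all MyoD-deleted libraries (28.9 to 31.7).

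The members printed in the first set show this at single regions. Outside genes at chr1:214204809-214205868, 75.8 kb from SMYD2, a lysine methyltransferase gene, the percentile was 80.5, 70.0 and 71.4 in vector replicates 1 to 3 and 12.5, 5.00 and 3.95 in MyoD-deleted replicates 1 to 3. All vector libraries were high and all MyoD-deleted libraries near the bottom of the scale, a change of −66.8 points (adjusted p = 0.0024, limma on ranks), and the centred height changed by −2.51 ± 0.21 (SE, n = 3 and 3, adjusted p = 7.22e-07, limma). Its E box lay 78 bp from the summit. In an intron at chr6:13177388-13178581, 151 kb from TBC1D7, which encodes a subunit of the TSC complex that restrains mTORC1, the values were 72.5, 90.6 and 91.3 against 12.5, 19.3 and 25.1. Again the groups lay far apart, with a change of −65.8 points (adjusted p = 0.00299, limma).

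At chr13:91184162-91185582, 214 kb from GPC5, a glypican gene, the percentile was 77.4, 81.7 and 75.3 in vector libraries and 6.01, 19.3 and 12.6 in MyoD-deleted libraries. At chr20:59334320-59335635, 34.5 kb from EDN3, the gene of the signalling peptide endothelin 3, it was 67.4, 84.6 and 67.1 against 8.01, 10.2 and 14.99. Both regions were high in every vector library and low in every MyoD-deleted library, and their centred heights changed by −2.22 ± 0.19 and −2.74 ± 0.18 (SE, n = 3 and 3, adjusted p = 8.16e-07 and 9.33e-08, limma).

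The largest rise among members called by both measures was 374 kb from IRS2, which encodes an adaptor of the insulin receptor. This region, at chr13:109412296-109413032, had percentiles of 34.6, 9.96 and 7.55 in vector replicates 1 to 3 and 89.8, 87.2 and 84.4 in MyoD-deleted replicates 1 to 3. It was low in 2 vector libraries, somewhat higher in the first, and near the top in all MyoD-deleted libraries, a rise of 69.7 points (adjusted p = 0.00299, limma) and of 1.63 ± 0.23 in centred log2 height (SE). Near C15orf62 (chr15:40776601-40777385, intronic) the values were 27.4, 18.3 and 11.7 against 86.5, 91.2 and 85.4. In an intron at chr20:4916787-4917700, 93.1 kb from SLC23A2, a vitamin C transporter gene, they were 14.2, 5.58 and 5.64 against 83.9, 72.0 and 71.8, and centred height rose by 1.99 ± 0.20 (SE, adjusted p = 2.91e-06, limma). Neither region had overlapping groups. LIN54, whose product binds DNA within the DREAM complex, and SLC2A8, which encodes a glucose transporter, followed with rises of 64.4 points each.

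The largest falls among members called by both measures included the SMYD2 region. The deepest was an intronic region at chr2:188395750-188396776, 105 kb from GULP1, the gene of an adaptor for the engulfment of dead cells, with percentiles of 79.1, 88.1 and 93.1 in vector libraries and 3.0, 3.66 and 27.7 in MyoD-deleted libraries. MyoD-deleted replicate 3 stood above the other two, but well below every vector library (change of −75.3 points, adjusted p = 0.0034, limma). A region 1600 kb from AMY1C, an amylase gene, fell by 72.9 points, one 840 kb from GSDMC, a gasdermin gene, fell by 71.9, and one in an intron 212 kb from TPRG1 fell by 70.2. At IRS2, C15orf62 and SLC23A2 the local background at the summit was at the floor of the library in all vector libraries and above it in all MyoD-deleted libraries, and at GULP1, AMY1C, TPRG1 and SMYD2 the reverse held. The part of that background in the ranks was not tested. The centred height, which does not divide by it, moved in the same direction at each of them. These regions were chosen by calls in both measures, so that this agreement followed from the choice.

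**Figure D5:**
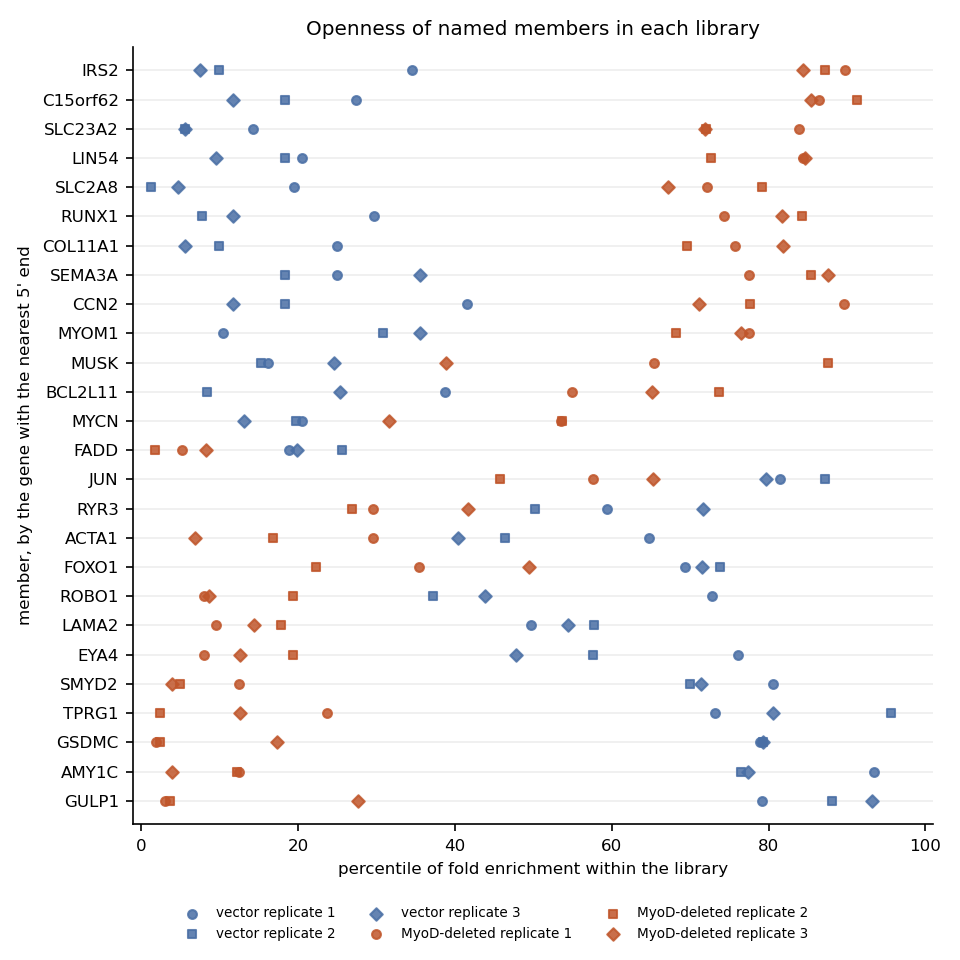
Percentile of fold enrichment within the library (x axis) of 26 members named by size of change or by gene list (y axis, gene with the nearest 5′ end), with 1 point per library and colour by group. The vector and MyoD-deleted points are separate at every member shown, from the GULP1 region, which fell by 75.3 points, to the IRS2 region, which rose by 69.7. All 26 were chosen among members that limma called on these ranks, and the separation follows in large part from that choice.

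The most open members were not called. The 5 with the highest mean percentile lay nearest to CCDC200, TMEM106A, NSUN5, TPTE and EPN2, and all had percentiles of at least 99.97 in every library. Their adjusted p by rank was 0.745 to 0.984 (limma), and at the top of the scale the percentile leaves little room to rise. At CCDC200 the local background was 4.32 to 7.51 times the smallest background of the library and at TMEM106A 14.5 to 18.9 times. The most open RUNX member, 85.6 kb from EGFR, the gene of the epidermal growth factor receptor, was at 99.95, 99.96 and 99.95 in vector libraries and 99.78, 99.94 and 99.91 in MyoD-deleted libraries (adjusted p = 0.439, limma).

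Members at genes of muscle were called in both directions. Of all members, 5.36% were higher and 3.92% lower by rank, and 13.9% and 10.0% by centred height. For counts by gene, a member belonged to whichever protein-coding gene had its 5′ end closest to the summit. Of 116 members at 28 myogenic transcription factor genes, 3 (2.59%) were higher and 6 (5.17%) lower by rank, and 11.2% higher and 14.7% lower by centred height. Of 54 at sarcomere genes 2 (3.70%) were higher and 1 (1.85%) lower by rank. By centred height 5 (9.26%) of them were higher and 8 (14.8%) lower. Of 87 at genes of calcium handling, the neuromuscular junction and fusion 7 (8.05%) were higher and 1 (1.15%) lower by rank. There centred height gave no such surplus, with 11 (12.6%) higher and 12 (13.8%) lower. The median change at these lists, in the order given, was −0.80, −0.77 and 0.90 points, where that of all members was 1.04.

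Among myogenic regulators, an intronic region 346 kb from RUNX1 was at 29.7, 7.70 and 11.7 in vector replicates 1 to 3 and at 74.3, 84.3 and 81.7 in MyoD-deleted replicates 1 to 3. A region 318 kb from EYA4, a transcriptional coactivator gene, was at 76.2, 57.6 and 47.8 against 8.01, 19.3 and 12.6. In both, all 3 libraries of a group lay on the same side, with changes of 63.7 and −47.2 points (adjusted p = 0.00331 and 0.00845, limma). At sarcomere genes the largest changes called were a rise of 48.4 points near MYOM1, which encodes the M-band protein myomesin, and a change of −32.8 near ACTA1, skeletal muscle actin. For the neuromuscular junction and calcium release, MUSK, the receptor kinase of the junction, had a rise of 45.3, with MyoD-deleted replicates at 65.4, 87.6 and 38.9, and RYR3, a calcium release channel gene, a change of −27.7. The MYOM1 call was kept in each of the 6 fits without 1 library. In 5 of the 6 the calls at ACTA1 (kept without MyoD-deleted replicate 1), MUSK and RYR3 (both kept without MyoD-deleted replicate 3) were lost, with changes of −25.7 to −38.7, 33.5 to 57.8 and −22.1 to −32.8 points over the 6 fits.

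The targeted gene itself had 1 member, at chr11:17713824-17714885, 5.12 kb from the 5′ end of MYOD1, and it was looked up after the values were seen. Its percentile was 42.6, 55.4 and 42.0 in vector libraries and 46.1, 33.3 and 41.4 in MyoD-deleted libraries. The groups overlapped, and the change of −6.38 points did not pass the test (adjusted p = 0.612, limma on ranks). Its centred height was 1.90, 2.19 and 2.06 against 1.38, 1.41 and 1.69, without overlap, and lower by 0.55 ± 0.11 on the log2 scale (SE, adjusted p = 0.0017, limma). Peak lists do not show the edited sequence, so this region is no check of the deletion.

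Members at PAX3-FOXO1 target and fusion-positive genes (94) had 4 (4.26%) higher and 8 (8.51%) lower by rank, beside 5.36% and 3.92% of all members. By centred height 9.57% were higher and 23.4% lower, beside 13.9% and 10.0%. A region in a long non-coding RNA gene 433 kb from FOXO1, the fusion partner of PAX3 in alveolar rhabdomyosarcoma, was at 69.3, 73.7 and 71.5 in vector libraries and 35.4, 22.3 and 49.4 in MyoD-deleted libraries. Its centred height changed by −2.40 ± 0.19 (SE, adjusted p = 3.28e-07, limma), while the local background at its summit was 8.51, 10.7 and 8.23 times the smallest background of the library in vector libraries and 2.80, 2.02 and 2.70 times in MyoD-deleted libraries. A region 105 kb from MYCN, an oncogene amplified in part of these tumours, was at 20.5, 19.7 and 13.1 against 53.6, 53.6 and 31.6. Over the 10 members assigned to MYCN the median local background was 4.12, 5.45 and 4.92 times in vector libraries and 3.01, 2.76 and 3.30 times in MyoD-deleted libraries. The part of these backgrounds in the percentiles was not tested. The FOXO1 and MYCN calls by rank were kept without vector replicate 1 or MyoD-deleted replicate 3 and lost in the other 4 fits without 1 library, with changes of −29.1 to −42.6 and 24.8 to 35.8 points over the 6 fits.

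Genes of AP-1 subunits and of TEAD and YAP targets had 89 members, of which 7 (7.87%) were higher and 3 (3.37%) lower by rank, beside 5.36% and 3.92% of all members. By centred height 28 (31.5%) were higher and 4 (4.49%) lower, beside 13.9% and 10.0%. Near CCN2, which encodes connective tissue growth factor and is a known target of YAP and TEAD, the member printed above (chr6:132084604-132085718, 134 kb away) was at 41.6, 18.3 and 11.7 in vector libraries and at 89.6, 77.6 and 71.1 in MyoD-deleted libraries. The groups were far apart although vector replicate 1 stood above the other two, with a rise of 55.5 points (adjusted p = 0.00816, limma) and of 2.05 ± 0.20 in centred log2 height (SE). A region 112 kb from JUN fell by 26.6 points, from 81.5, 87.1 and 79.7 to 57.6, 45.8 and 65.3. This call was lost without vector replicate 2, MyoD-deleted replicate 1 or MyoD-deleted replicate 2, with changes of −21.3 to −31.1 points over the 6 fits without 1 library.

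Extracellular matrix and mesenchymal genes had 125 members, with 8 (6.4%) higher and 6 (4.8%) lower by rank, beside 5.36% and 3.92% of all members. By centred height 22.4% were higher and 12.0% lower, beside 13.9% and 10.0%. The member near COL11A1, a fibrillar collagen gene, was at 25.02, 9.96 and 5.64 in vector libraries and 75.8, 69.6 and 81.9 in MyoD-deleted libraries (rise of 62.2 points, adjusted p = 0.00344, limma). Near LAMA2, the laminin chain of muscle basement membrane, a member fell by 40.1 points. Neural development genes (105 members) had 7 (6.67%) higher, led by the axon guidance ligand gene SEMA3A (57.2 points), and 6 (5.71%) lower, led by the guidance receptor gene ROBO1 (−39.3 points). The ROBO1 call was lost without MyoD-deleted replicate 1 or MyoD-deleted replicate 3 (−28.5 to −46.4 points over the 6 fits without 1 library).

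Cell death genes, a list that also held the DNA methyltransferase genes, had 72 members, with 6 (8.33%) higher and 1 (1.39%) lower by rank, beside 5.36% and 3.92% of all members. By centred height 15 (20.8%) were higher and 3 (4.17%) lower, beside 13.9% and 10.0%, and the median change of 4.45 points was above that of all members. An intronic member 16.7 kb from BCL2L11, which encodes the pro-apoptotic protein BIM, was at 38.8, 8.36 and 25.3 in vector libraries and 54.9, 73.6 and 65.2 in MyoD-deleted libraries. The groups did not overlap, but the vector libraries were spread widely (rise of 40.4 points, adjusted p = 0.0272, limma). Near FADD, an adaptor of death receptors, the member called lower was at 18.8, 25.6 and 19.9 against 5.26, 1.75 and 8.21. Both calls were lost with the replicate number as a block. In fits without 1 library the BCL2L11 call was kept in 1 of 6 (without vector replicate 1) and the FADD call in 2 (without vector replicate 1 or MyoD-deleted replicate 3). Over the 6 fits the change was 32.5 to 47.7 points at BCL2L11 and −14.3 to −17.9 at FADD. Of 18 members at CTCF and cohesin genes, 0 were called in either direction by rank, and 1 was higher and 1 lower by centred height.

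Over all genes, 9079 had at least 1 member, and 4529 had 1. A member called higher was found at 973 genes, one called lower at 704, and both at 113. The genes with the most members called higher were ATP23 (4 of 21), TBC1D22A (4 of 9), TNS4, PAPPA and PKN2 (3 each of 5, 7 and 6). The last 3 were taken from 9 genes with 3 such members by their larger median change. ATP23 and TBC1D22A also had 1 member each called lower. At TBC1D22A 3 members were higher and 2 lower by centred height, with a median change in height of −0.09. TNS4 encodes a tensin of focal adhesions, and PAPPA a protease that frees insulin-like growth factors. At TNS4 the median change was 22.2 points and the median local background was 2.06 to 2.44 times the smallest in vector libraries and 3.73 to 4.29 times in MyoD-deleted libraries, and its part in the change was not tested. At ATP23, on chromosome 12, 10 of 21 members were higher by centred height, and the local background was high in both groups, 6.98 to 8.77 times in vector libraries and 7.36 to 10.2 times in MyoD-deleted libraries, where the median over all members was 1.80 to 1.89 and 1.92 to 2.02. The genes with the most members called lower were LMBRD1 (3 of 6), TPRG1 (3 of 6), TBL1XR1 (3 of 9), GSDMC (3 of 10) and SPAG17 (3 of 10). TPRG1, GSDMC and SPAG17 also had 1 member each called higher, and the median member at SPAG17 rose by 2.13 points. TBL1XR1 encodes a subunit of the NCOR corepressor complex, and its member with AACAGGTG fell by 62.4 points, from 84.8, 92.0 and 79.6 to 32.7, 19.3 and 17.4.

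Calls also varied with place and composition, where 5.36% of all members were higher and 3.92% lower by rank. The groups by distance, gene part, chromosome and openness were counted over members only. Members 50 to 200 kb from a 5′ end were called higher in 6.51% and lower in 4.57%, whereas beyond 200 kb 5.05% were higher and 6.21% lower. In exons 2.93% were higher and 1.93% lower, and in introns 5.89% and 4.28%. With a GC content under 35% in the window (410 members) 4.63% were higher and 7.56% lower, and at 65% or more (2659) 1.92% and 0.68%. All shared regions were close to this, with 4.72% and 7.39% under 35%, and 1.21% and 1.00% at 65% or more. Chromosome 22 had the highest share called higher, 8.44%, and chromosome 19 the lowest share called lower, 1.54%. By openness, 6.81% of members with a mean percentile of 40 to 60 were called higher and 4.48% lower, and 3.31% and 1.23% of those at 80 to 100.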

How the data were processed

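ATAC-seq libraries of RH30 cells, 3 vector and 3 MyoD-deleted, were grouped by their labels. Paired-end reads had been aligned with Rsubread (hg38) and filtered for proper pairs, and the authors then ran MACS2 on each library apart. bcl2fastq 2.20 and FastQC are named in the submitters' processing notes, and an exclusion list is named in the methods without its place in the order. The deposited score is −log10 q times 10, the deposited fold enrichment gives the ratio of summit pileup to local background of that library, and the deposited −log10 p and −log10 q belong to the summit. None is normalized between libraries. The count test of the study (DESeq2) could not be run, since the lists hold no counts. Depth, and with it the counting error of each value, is unknown.

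Peaks on chromosome Y and the mitochondrial peak of each library (1 each) were not used. Pileups and backgrounds were recovered from fold enrichment and −log10 p under the Poisson model of the caller, with a pseudocount of 1, for 100% of peaks. Regions were merged in Python 3.11.15 (numpy 2.4.6, pandas 2.3.3, scipy 1.17.1) and checked with bedtools 2.31.1, with genes from GENCODE 44. Two-sided tests used limma 3.58.1 (eBayes with trend, R 4.3.3) over 47847 regions, Benjamini-Hochberg adjusted, on inverse-normal ranks and on centred heights. The steps were tested on simulated data. Figures used matplotlib 3.10.9.

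The regions named were the 5 most open, the 5 largest rises and 5 largest falls called by both measures, the most open holder of each of the 3 motifs with the largest excess over flanks, and for each of 9 gene lists the largest rise and fall called by rank. The genes named had the most members called, 5 in each direction, with ties broken by the larger median change. Members, motifs and lists were chosen with earlier results of these data known. No source says that replicates came from separate cultures, so p-values measure the spread between these libraries. Alternatives were other measures, filters and forms of the rule, each library left out, and the replicate number as a block. Same-numbered libraries did not deviate together, with correlations of −0.0409, −0.0976 and 0.0414, so the numbers were not taken as pairs.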

Additional observations from a re-analysis of the deposited data

How the results depend on the processing

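By rank, 1059 members were higher and 774 lower. These counts moved to 2752 and 1983 with centred height, 2735 and 2232 with height centred in bins of GC content, 2155 and 1675 with ranks of −log10 p, 612 and 442 where peaks had to cover at least 50% of a region (15100 members), and 417 and 129 without any E box, AP-1-like or CRE motif (6789 members). Height without centring gave 5439 and 1235, 81.5% higher against 58.1% with centring, since the median region then stood 0.23 higher in MyoD-deleted libraries (log2), and the same values replaced 2752 and 1983 by height. Leaving out 1 library gave 300 to 1300 higher and 299 to 637 lower by rank, and 1836 to 3239 and 1468 to 2131 by centred height. By rank, counts in both directions changed by over 1.5 times without vector replicate 2 (392 and 299), vector replicate 3 (475 and 367), MyoD-deleted replicate 1 (492 and 407) or MyoD-deleted replicate 2 (300 and 322), and that of higher members without MyoD-deleted replicate 3 (662). The cause was not tested. The replicate block gave 745 and 524 by rank and 2527 and 1874 by height. The replicate numbers were not shown to pair the libraries. Of 33 named regions, 26 were called by rank. The block took the call from 2 of these. Under centred height, ranks of −log10 p, the block and each library left out, 24 of the 33 had the same call. These 24 include every named region that was not called by rank. The largest rises and falls had been chosen by calls in both rank and centred height, so that their agreement by height followed from the choice. Of the 26 called changes, 0 took the other sign in these settings. Of the regions not called, 3 (CCDC200, TMEM106A and TPTE, all among the most open) did, with no change past the test. Windows of 75 or 150 bp, a distance of 5 kb, all transcripts, −log10 q of at least 5 and equal numbers of peaks each kept both counts within 1.5 times. Small changes at weak regions are limited by depth, which the lists do not give.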
